A study of Mus musculus with 15 samples.

Results

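The 10 genes described here encode the 3 TGFβ ligands (*Tgfb1*, *Tgfb2* and *Tgfb3*), the 4 latent TGFβ binding proteins (*Ltbp1* to *Ltbp4*) and the 3 TGFβ receptors (*Tgfbr1*, *Tgfbr2* and *Tgfbr3*). They were chosen by name, and a probe belonged to a gene when it was designed on a RefSeq transcript of that gene. The rule took 10 of the 23462 genes and 16 of the 56605 probes of the array. RNA came from Mouse Embryonic Fibroblasts (MEFs) of the established line Balb/c/3T3 clone A31, so the groups are cultures of the same cells and not animals. MEFs were left untreated (control), treated by 10 ng/ml of TNFα or 5 ng/ml of TGFβ1, or treated by 1 ng/ml of IL-1β or by 20 ng/ml of IL-6 given together with 25 ng/ml of its soluble receptor sIL-6Rα. Each of the 5 groups holds 3 arrays. The study's methods give a stimulation of 24 h for the control, TNFα and TGFβ1 arrays. The exposure of the IL-1β and IL-6 arrays is not given for the group in the sources used here, where the labels name 24 h or 72 h. Arrays carry the name of their group and their label number.

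TGFβ is secreted as a dimer that stays wrapped in its own propeptide, so it cannot reach a receptor until it is released. Latent TGFβ binding proteins tie this latent complex to the extracellular matrix, where integrins and proteases can free the ligand. The free ligand binds the type II receptor (*Tgfbr2*), which recruits and phosphorylates the type I receptor (*Tgfbr1*), while the type III receptor betaglycan (*Tgfbr3*) presents ligand, above all TGFβ2. Fibroblasts both make and answer TGFβ, and they are the main producers of matrix in connective tissue.

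The 10 fibroblast markers examined, *Col1a1* and *Pdgfra* among them, were well above background on all 15 arrays, while *Ptprc* (leukocytes), *Adgre1* (macrophages), *Cdh5* (endothelium) and *Cdh1* (epithelium) were on none. From the wider lists, 3 of 6 leukocyte markers, 1 of 4 endothelial markers and 0 of 6 epithelial markers were above background on all 15 arrays. These were *Itgam*, *Csf1r* and *Cd68* of the leukocyte list and *Pecam1* of the endothelial list, with median signals of 3980, 348, 227 and 38.8. Of the epithelial markers, *Krt18* was above background on 10 arrays, *Krt8* on 4, *Krt14* on 3 and *Epcam* on 1. Between 48.3% and 54.9% of the probes of an array were well above background. The arrays lay on 2 slides that were scanned at different times, and every group had arrays on both. Controls 1 and 11, TNFα 14 and TGFβ1 7 were on slide 1, while control 6, TNFα 4 and 9 and TGFβ1 2 and 12 were on slide 2. Arrays of the same group correlated at 0.987 to 0.991 on the same slide and at 0.981 to 0.987 across slides (Pearson's r over probes). For the 10 genes, differences called with TNFα or TGFβ1 are therefore also given with the slide in the model and within each slide, where control and treated arrays stand 2 against 1 or 1 against 2 and no test was made.

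A level is the log2 processed signal of a probe minus the 75th percentile of its array, so 0 is as bright as that percentile, and 1 unit is a doubling. Levels of different probes cannot be compared with each other. A gene was called higher or lower at a q-value below 0.05 in limma with a fold-change of at least 1.5, adjusted over all 29334 probes tested. Where a gene has several probes, values are those of the probe with the brighter mean signal. All 10 genes had at least 1 probe tested, and 15 of the 16 probes passed the filter on dim signals on every array of all 5 groups. The other, a *Ltbp4* probe for another transcript variant, was well above background on 1 TNFα array and 1 TGFβ1 array only and was not tested. Each array measured the RNA of a whole culture, so a change in the transcript per cell and a change in the share of cells that carry it cannot be told apart. The 4 comparisons with control share the same 3 control arrays.

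The next lines give the 250 bases before the transcription start of 4 of the genes from RefSeq (assembly GRCm38.p6), shown because the first 3 rose and the last fell in MEFs treated by TGFβ1. Capitals mark CAGAC, a short sequence that SMAD proteins can bind, on either strand (GTCTG on the other).
*Tgfb1*, chr7:25686752-25687001, plus strand: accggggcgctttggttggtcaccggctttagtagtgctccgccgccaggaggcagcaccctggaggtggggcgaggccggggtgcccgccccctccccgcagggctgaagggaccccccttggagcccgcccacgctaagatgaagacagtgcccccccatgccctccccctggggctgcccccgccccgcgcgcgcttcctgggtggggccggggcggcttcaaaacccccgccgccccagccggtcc
*Tgfb2*, chr1:186705990-186706239, minus strand: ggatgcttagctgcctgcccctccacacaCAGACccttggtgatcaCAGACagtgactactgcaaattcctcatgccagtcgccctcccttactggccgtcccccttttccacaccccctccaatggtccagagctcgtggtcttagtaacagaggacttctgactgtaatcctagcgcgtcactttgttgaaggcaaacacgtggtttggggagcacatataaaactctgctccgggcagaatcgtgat
*Ltbp2*, chr12:84876492-84876741, minus strand: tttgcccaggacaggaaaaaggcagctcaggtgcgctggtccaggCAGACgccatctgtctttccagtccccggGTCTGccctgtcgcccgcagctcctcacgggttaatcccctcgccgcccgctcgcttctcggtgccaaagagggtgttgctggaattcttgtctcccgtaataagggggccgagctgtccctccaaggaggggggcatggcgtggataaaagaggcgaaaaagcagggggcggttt
*Tgfbr2*, chr9:116175364-116175613, minus strand: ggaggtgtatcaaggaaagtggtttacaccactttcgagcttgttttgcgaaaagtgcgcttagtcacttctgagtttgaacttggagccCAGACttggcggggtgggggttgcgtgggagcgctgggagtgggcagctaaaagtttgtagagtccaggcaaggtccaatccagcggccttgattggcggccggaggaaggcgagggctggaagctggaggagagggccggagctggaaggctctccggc

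The *Tgfb1* window had no CAGAC, that of *Tgfb2* had 2, at 221 and 204 bases before the start, that of *Ltbp2* had 2 before the start, and that of *Tgfbr2* had 1. RefSeq windows of 300 bases (250 before and 50 after the start) were found for 8 of the 10 genes, 12 windows in all. CAGAC was present in 7 of these 12, while 49.6% of all 32817 windows held it. The 8-base palindrome GTCTAGAC was in none of the 12 and in 0.213% of all, and the AP-1 sequence TGANTCA was in 1 of the 12 (*Ltbp3*) and in 7.81% of all. The *Tgfb1* window was 77.0% G and C, that of *Ltbp2* 61.0%, that of *Tgfbr2* 59.0% and that of *Tgfb2* 54.3%, beside a median of 52.7% over all windows of 300 bases. These letters are a description of the windows, and genes with and without CAGAC are found among those that rose.

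MEFs treated by TGFβ1 had higher transcripts of all 3 ligands than controls, by 2.99-fold for *Tgfb1*, 3.05-fold for *Tgfb2* and 5.46-fold for *Tgfb3*. They also had more *Ltbp2* (2.26-fold) and less of the receptor transcripts *Tgfbr2* (1.89-fold lower) and *Tgfbr3* (3.02-fold lower). In all, 4 of the 10 genes were called higher and 2 lower, where 7.26% of all tested probes were called higher and 10.7% lower. MEFs treated by TNFα showed another pattern, with *Tgfb2* lower (2.28-fold), *Ltbp3* lower (2.21-fold) and *Ltbp2* higher (2.18-fold). That is 1 of 10 called higher and 2 lower, where 4.15% of all tested probes were called higher and 6.01% lower. The median log2 difference over the 10 genes was 0.28 with TGFβ1 and -0.36 with TNFα, beside 0.06 and 0.04 over all probes tested.

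**Figure D1:**
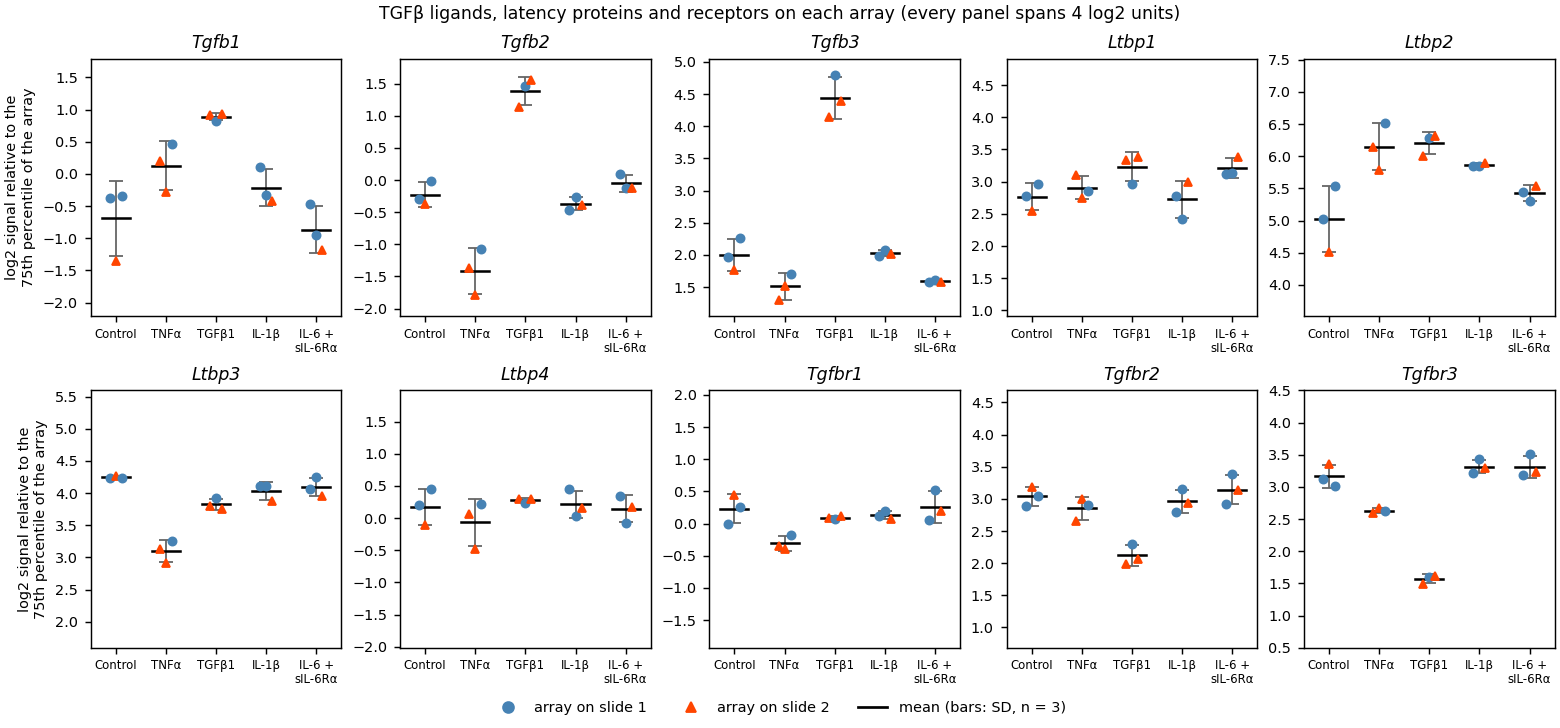
Levels of the 10 genes on each of the 15 arrays, as log2 signal relative to the 75th percentile of the array, by group. Points are arrays (circles slide 1, triangles slide 2), lines are means and bars SD (n = 3), and every panel spans 4 log2 units. The 3 TGFβ1 arrays lie above every other array for all 3 ligands and below every other array for Tgfbr2 and Tgfbr3, and the 3 TNFα arrays lie below every other array for Tgfb2 and Ltbp3.

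*Tgfb3* encodes TGFβ3, a ligand known for its role in palate and lung development. Its level was 1.97, 1.77 and 2.26 on the control arrays 1, 6 and 11. It was 4.14, 4.79 and 4.40 on the TGFβ1 arrays 2, 7 and 12. The lowest TGFβ1 array was far above the highest control. The difference was 2.45 on the log2 scale (SE 0.168, q = 2.43e-06, limma). It was 2.53 with the slide in the model, 2.68 within slide 1 and 2.51 within slide 2. With TNFα the levels were 1.30, 1.52 and 1.71, all under the lowest control, and the difference of -0.49 was not called (q = 0.0808). IL-1β arrays (1.98 to 2.08) lay among the controls, and IL-6 arrays (1.58 to 1.61) lay under the lowest control with a difference of -0.41 that was not called (q = 1). In order of mean level the groups were TGFβ1 (4.45), IL-1β (2.03), control (2.00), IL-6 (1.59) and TNFα (1.51). Only the step from TGFβ1 to the rest was called (q = 2.19e-06 for the nearest group, IL-1β), and the neighbours below it were not called against each other.

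*Tgfb2* encodes TGFβ2, the ligand that depends most on betaglycan for binding. Control levels were -0.30, -0.37 and -0.01, TNFα levels -1.37, -1.79 and -1.08, and TGFβ1 levels 1.13, 1.46 and 1.55. The 3 groups did not overlap, with TNFα under the controls and TGFβ1 above them. *Tgfb2* fell by 1.19 with TNFα (SE 0.178, q = 0.000924) and rose by 1.61 with TGFβ1 (SE 0.178, q = 7.09e-05) on the log2 scale. The fall was -1.12 with the slide in the model, -0.93 within slide 1 and -1.21 within slide 2, and the rise was 1.67, 1.62 and 1.72. Its second probe, on another transcript, gave -1.24 and 1.59. The test of TNFα against TGFβ1 itself gave 6.96-fold less *Tgfb2* with TNFα (q = 7.21e-07). IL-1β levels (-0.46 to -0.26) and IL-6 levels (-0.13 to 0.10) stayed around those of the controls, with 95% intervals of the difference from -0.53 to 0.25 and from -0.21 to 0.56. The order of mean levels was TGFβ1 (1.38), IL-6 (-0.05), control (-0.23), IL-1β (-0.37) and TNFα (-1.42). The top and bottom groups each differed from their neighbour by a called test (q = 0.000151 and q = 0.00456), and the middle 3 were not called against each other.

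*Tgfb1* encodes TGFβ1, the same ligand that was added to the cultures as recombinant protein, which carries no RNA, so the probes read the transcript of the MEFs. The control levels were -0.37, -1.36 and -0.34, with control 6, the only control on slide 2, about 1 log2 unit under the others. TGFβ1 levels were 0.91, 0.83 and 0.93, which is a narrow range above every other array. The rise was 1.58 (SE 0.284, q = 0.00181). It was 1.73 with the slide in the model, 1.19 within slide 1 and 2.28 within slide 2, where control 6 is the single control. Without control 6 it was 1.25 and still called. TNFα levels were 0.20, -0.28 and 0.47, all above the highest control, the lowest of them by a small margin. That difference of 0.82 was not called (q = 0.0804), but it was once the slide was a term of the model (0.97, q = 0.011), and also by the second probe of the gene (1.11, q = 0.0242). Without control 6 it was 0.49 (q = 0.221). IL-1β (-0.42 to 0.11) and IL-6 (-1.18 to -0.47) overlapped the controls. The order of means was TGFβ1 (0.89), TNFα (0.13), IL-1β (-0.21), control (-0.69) and IL-6 (-0.87), and no 2 neighbours in this order were called against each other, except that TNFα was called under TGFβ1 once the slide was in the model (q = 0.0253), with the mean of both probes (q = 0.0336) and without control 6 (q = 0.0339). The second probe of the gene also called TNFα under TGFβ1 (-0.96, q = 0.0401), with no block in the model. Over wider steps, TGFβ1 was called above IL-1β (q = 0.0149) and IL-6 (q = 0.000929), and TNFα above IL-6 (q = 0.041). The call against IL-1β was lost without IL-1β 10 (q = 0.0601). The call of TNFα against IL-6 was lost when only the arrays of both groups were fitted (q = 0.0746), with no filter on dim probes (q = 0.0929), and without any 1 of TNFα 4 and 14, the 3 TGFβ1 arrays, IL-1β 10 and IL-6 8 and 13 (q = 0.053 to 0.138), while the difference ran from -1.21 to -0.83 over all alternatives. By the second probe IL-6 was called under TNFα as well (-1.32, q = 0.0108). IL-1β was called above IL-6 only with the slide and the run of label numbers in the model (0.66, q = 0.00224).

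**Figure D2:**
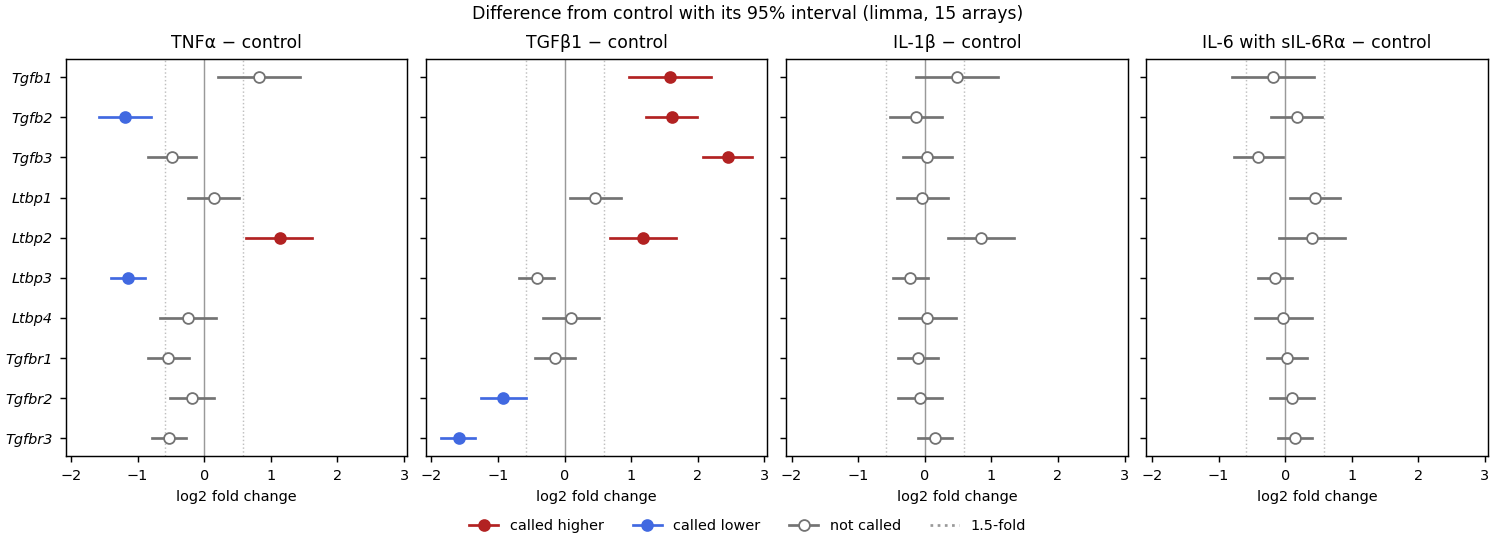
Log2 difference from control of each gene in the 4 treated groups (limma, 3 arrays a group), with 95% intervals as bars and dotted lines at 1.5-fold. Filled red and blue points are called higher and lower and open grey points are not called. Filled points are found for 6 genes with TGFβ1 and 3 with TNFα, and for none with IL-1β or IL-6.

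Among the latency proteins, *Ltbp2* and *Ltbp3* moved, and *Ltbp1* and *Ltbp4* were not called in any comparison. *Ltbp2* encodes a matrix protein of the family that binds fibrillin but does not bind latent TGFβ covalently. Its control levels were 5.03, 4.51 and 5.53, the widest spread of the controls for any of the 10 genes but *Tgfb1*. They were 6.15, 5.79 and 6.51 with TNFα and 6.01, 6.29 and 6.31 with TGFβ1. Both treated groups lay above the highest control, and they overlapped each other. The rise was 1.13 with TNFα (SE 0.229, q = 0.00665) and 1.18 with TGFβ1 (SE 0.229, q = 0.00297). With the slide in the model it was 1.21 and 1.26, within slide 1 1.23 and 1.01, and within slide 2 1.46 and 1.65. When only the 6 arrays of the control and TNFα groups were fitted, the TNFα difference no longer passed (q = 0.0775). TNFα and TGFβ1 differed from each other by -0.05 (95% interval -0.55 to 0.45). IL-1β levels were 5.84, 5.84 and 5.90, also above every control. That difference of 0.84 was not called (q = 0.379), but it was with the slide and the run of label numbers in the model (q = 0.0032). IL-6 levels (5.30 to 5.54) overlapped the controls. By mean level the order was TGFβ1 (6.20), TNFα (6.15), IL-1β (5.86), IL-6 (5.43) and control (5.02), no neighbours in it were called against each other, and TGFβ1 was called above IL-6 (q = 0.0297). That call was lost with quantile normalization (fold-change under the limit), with no filter on dim probes (q = 0.0697) and without TGFβ1 7 or 12 or IL-6 3 or 8 (q = 0.0646 to 0.109). TNFα was not called above IL-6 (q = 0.0654). It was with the slide as a block (q = 0.0246), with the slide and the run as blocks (q = 0.000246), with quantile normalization (q = 0.0488) and without control 6, control 11 or TNFα 9 (q = 0.0246 to 0.0421).

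*Ltbp3* encodes a binding protein that links latent TGFβ covalently and is known for its part in bone and tooth growth. Its control arrays were nearly equal, at 4.24, 4.27 and 4.23. TNFα arrays read 3.13, 2.92 and 3.26, and TGFβ1 arrays 3.80, 3.92 and 3.76. All 3 groups were separate, with TNFα lowest. *Ltbp3* fell by 1.15 with TNFα (SE 0.119, q = 6.45e-05). The difference was -1.09 with the slide in the model, -0.97 within slide 1 and -1.25 within slide 2. Its second probe gave -1.20 (q = 0.00154). With TGFβ1 the difference of -0.42 had a q-value of 0.0211 but its fold-change of 1.34 was under the limit, so it was not called. The TNFα level was lower than the TGFβ1 level in the test between them (1.65-fold, q = 0.00112). IL-1β arrays (3.87 to 4.11) lay just under the controls and IL-6 arrays (3.96 to 4.25) overlapped them. The means ran from control (4.25) over IL-6 (4.09), IL-1β (4.03) and TGFβ1 (3.83) to TNFα (3.10), and the last step was the only one called between neighbours.

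*Ltbp1* and *Ltbp4*, which encode the other covalent binding proteins of this family, the second a weaker binder known from elastic fibres, were not called with any treatment. *Ltbp1* levels ran from 2.55 to 2.97 in controls, 2.75 to 3.10 with TNFα, 2.97 to 3.39 with TGFβ1, 2.42 to 2.99 with IL-1β and 3.12 to 3.39 with IL-6. The largest differences from control were 0.46 with TGFβ1 (q = 0.0724) and 0.45 with IL-6 (q = 1), neither called. The TGFβ1 difference was 0.10 within slide 1 and 0.81 within slide 2. Without TGFβ1 7 it was 0.59 and called (q = 0.0428). IL-1β was called under TGFβ1 for *Ltbp1* only without TGFβ1 7 (q = 0.0354) or IL-1β 15 (q = 0.0307). *Ltbp4* levels spanned -0.48 to 0.45 over all arrays and every group overlapped the controls, with differences from -0.24 (TNFα, 95% interval -0.67 to 0.18) to 0.10 (TGFβ1, 95% interval -0.33 to 0.52). Its second probe gave -0.28 and 0.06.

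**Figure D3:**
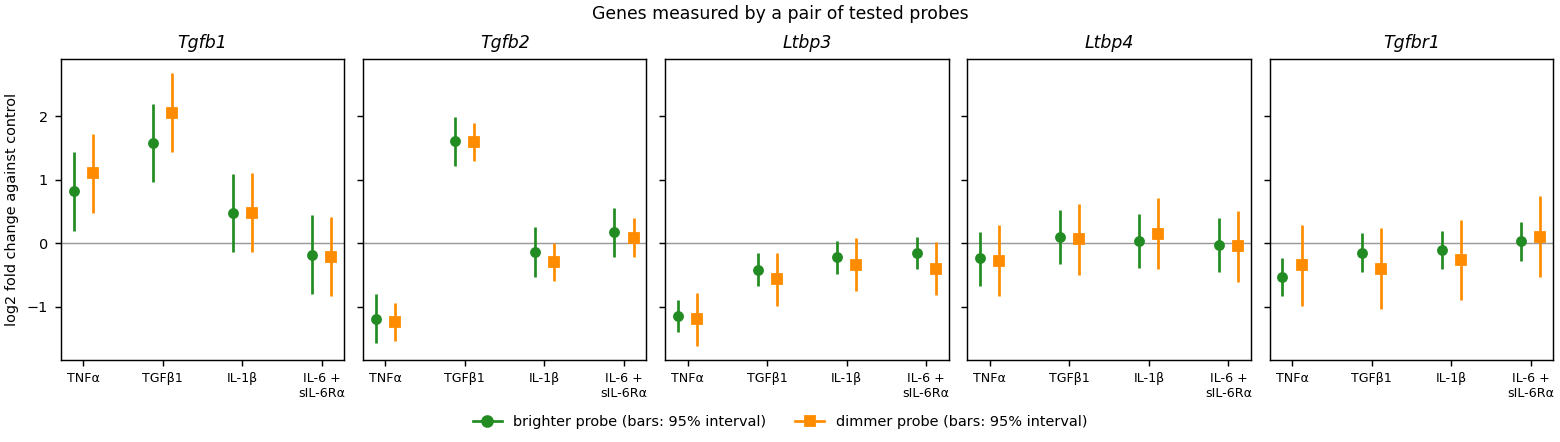
Log2 difference from control, with 95% intervals as bars, for the 5 genes measured by a pair of tested probes (circles the brighter probe, squares the dimmer one) in the 4 treated groups. Both probes of a gene point the same way in all 20 differences, and their intervals overlap in all 20.

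The receptors did not rise in any comparison with control. *Tgfbr3* (betaglycan) gave 3.13, 3.35 and 3.01 in controls and 1.49, 1.60 and 1.62 with TGFβ1. The groups were far apart, and no array of any other group came near the TGFβ1 arrays. It fell by 1.59 (SE 0.119, q = 3.79e-06), or by -1.60 with the slide in the model, -1.47 within slide 1 and -1.79 within slide 2. With TNFα it read 2.60, 2.67 and 2.63, below every control. That difference of -0.53 had a q-value of 0.0109 and a fold-change of 1.45, just under the limit of 1.5. It was therefore not called, except without control 11 (-0.61, q = 0.013). TNFα was nonetheless called lower than IL-1β (1.61-fold, q = 0.00507) and IL-6 (1.61-fold, q = 0.0027) and higher than TGFβ1 (2.09-fold, q = 5.86e-05). IL-1β (3.22 to 3.43) and IL-6 (3.19 to 3.51) overlapped the controls. The mean levels were in the order IL-1β (3.32), IL-6 (3.31), control (3.16), TNFα (2.63) and TGFβ1 (1.57).

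*Tgfbr2*, the type II receptor that binds free ligand, gave 2.89, 3.18 and 3.05 in controls and 1.99, 2.30 and 2.07 with TGFβ1, without overlap. It fell by 0.92 (SE 0.154, q = 0.00117), or by -0.90 with the slide in the model, -0.67 within slide 1 and -1.14 within slide 2. TNFα levels (2.65 to 3.00), IL-1β levels (2.79 to 3.15) and IL-6 levels (2.92 to 3.38) overlapped the controls. The TNFα difference was -0.19 (95% interval -0.52 to 0.15). TGFβ1 was called lower than each of the other treated groups, by 1.66-fold against TNFα (q = 0.00605), 1.78-fold against IL-1β (q = 0.0023) and 2.03-fold against IL-6 (q = 0.000593). *Tgfbr1*, the type I receptor kinase that starts the SMAD signal, was not called with any treatment. It gave 0.00, 0.44 and 0.26 in controls, 0.08, 0.07 and 0.12 with TGFβ1 and -0.35, -0.39 and -0.17 with TNFα. The TNFα arrays lay under all controls, with a difference of -0.54 (q = 0.0243, 1.45-fold) that missed the fold-change limit. It was called without control 1 (-0.66, q = 0.0139) or TNFα 14 (-0.61, q = 0.0324). The second, dimmer probe of *Tgfbr1* gave -0.35 (q = 0.493). With TGFβ1 the difference was -0.15 (95% interval -0.45 to 0.16).

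The arrays of the treated group did not overlap the controls for 8 of the 10 genes with TGFβ1 and 7 of 10 with TNFα, and such a gap was found for 39.2% and 29.6% of all tested probes. With IL-1β and with IL-6 it was 2 of 10 each (*Ltbp2* and *Ltbp3*, and *Tgfb3* and *Ltbp1*), beside 5.36% and 5.15%. None of the 10 genes was called with IL-1β or IL-6, where limma called 0.252% and 0.0682% of all tested probes in either direction. At an unadjusted p under 0.05 there was 1 with IL-1β (*Ltbp2*) and there were 2 with IL-6 (*Ltbp1* and *Tgfb3*). The 95% intervals of the 10 IL-6 differences lay between -0.80 and 0.90, and those of IL-1β between -0.53 and 1.34.

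**Figure D4:**
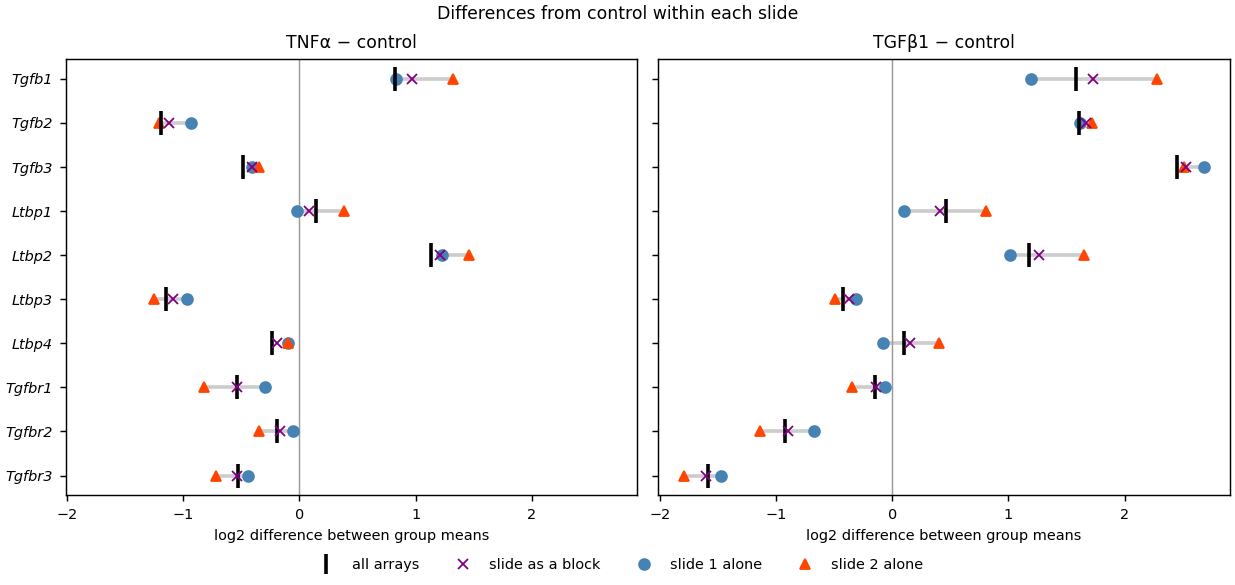
Log2 difference of group means between TNFα or TGFβ1 and control for each gene, over all arrays (black bars), with the slide as a block (crosses), and within slide 1 (circles) or slide 2 (triangles), where 1 side is always a single array. All 9 called differences keep their direction on both slides, and the gap between slides is widest for Tgfb1 with TGFβ1, at 1.19 and 2.28.

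Each pair of treatments was tested in the same limma model. Between TNFα and TGFβ1, 5 of 10 genes were called (11.8% of all tested probes), with *Tgfbr2* and *Tgfbr3* higher and *Tgfb2*, *Tgfb3* and *Ltbp3* lower with TNFα. *Tgfb3* was 7.65-fold lower with TNFα than with TGFβ1 (q = 3.2e-07). Between IL-1β and TGFβ1, 5 of 10 were called (17.0% of all), the same 2 receptors higher and the 3 ligands lower with IL-1β. Between IL-6 and TGFβ1 there were 6 of 10 (16.4% of all), these 5 and *Ltbp2*, lower with IL-6. IL-1β exceeded TNFα for 3 of 10 genes (4.87% of all tested probes in either direction), which were *Tgfb2* (2.07-fold), *Ltbp3* (1.90-fold) and *Tgfbr3* (1.61-fold), of which *Tgfb2* missed the threshold when only the arrays of both groups were fitted (q = 0.0533). IL-6 and TNFα differed for 4 of 10 (8.70% of all), with *Tgfb2* (2.58-fold), *Ltbp3* (1.99-fold) and *Tgfbr3* higher and *Tgfb1* lower (2.00-fold) with IL-6. Without the array IL-6 8, *Tgfb1* (q = 0.132) and *Tgfbr3* (0.58, under the fold-change limit) were no longer called. *Tgfbr1* was higher with IL-6 than with TNFα by 0.56 (q = 0.0214) but missed the fold-change limit (1.48-fold). It was called without TNFα 14, IL-6 3 or IL-6 13 (q = 0.0168 to 0.0436). Its second probe gave 0.46 (q = 0.391). IL-1β and IL-6 did not differ in any of the 10 by the limma test (0.416% of all), with 3 at an unadjusted p under 0.05. With the slide and the run of label numbers as blocks 1 was called, *Tgfb1*.

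Other genes of the pathway were examined as 4 lists. Of 17 genes that release or activate the ligand 12 were tested, and with TGFβ1 7 were called higher and 0 lower (7.26% and 10.7% of all tested probes), with a median of 0.60 beside 0.06 over all. These were *Furin*, which cleaves the propeptide, the integrin chains *Itgav*, *Itgb1* and *Itgb3*, which pull on the latent complex, the proteases *Mmp14* and *Bmp1*, and *Lrrc32*, which holds latent TGFβ on the cell surface. *Itgb3* went from 1.78 to 1.91 in controls to 3.67 to 4.04 with TGFβ1 (difference 1.95, SE 0.133, q = 2.32e-06), while *Itgb1* rose by 0.83 (q = 0.000148). With TNFα 2 of the 12 were higher and 0 lower (4.15% and 6.01% of all tested probes), and these were *Mmp9*, a gelatinase (difference 4.31, SE 0.358, q = 1.19e-05), and *Lrrc32* (1.59, q = 0.00012). *Lrrc32* was the one gene of all 4 lists called with IL-1β. Its levels were 0.56, 0.02 and 0.35 in controls and 2.59, 2.62 and 2.81 with IL-1β (difference 2.37, SE 0.18, q = 0.000125). They were 1.80 to 1.98 with TNFα, 0.86 to 1.56 with TGFβ1 (difference 0.96, q = 0.00236) and -0.19 to 0.05 with IL-6. It was thus highest with IL-1β, with no overlap with any other group. *Mmp9* read -2.74 to -2.17 with IL-1β and -4.69 to -3.54 in controls, and this difference of 1.72 was not called (q = 0.1), except with the slide and the run of label numbers as blocks (q = 0.00404).

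Ligand traps and accessory receptors, 10 genes all tested, showed 2 higher and 2 lower with TGFβ1 (7.26% and 10.7% of all tested probes) and 1 higher and 2 lower with TNFα (4.15% and 6.01%). Their medians were 0.16 and -0.10. *Dcn* encodes decorin, a small proteoglycan that binds TGFβ. It gave 4.84, 5.88 and 4.55 in controls, rose to between 6.71 and 7.48 with TNFα (1.91, SE 0.419, q = 0.01) and fell to between 2.68 and 3.68 with TGFβ1 (-1.81, SE 0.419, q = 0.00789). With IL-1β it read 6.72 to 7.42, above every control, and the difference of 1.88 was not called (q = 0.141), except with the slide and the run as blocks (q = 0.00102). Its relatives *Fmod* (fibromodulin) and *Aspn* (asporin) fell with TNFα, by 3.31 (q = 0.000632) and 3.08 (q = 0.0119) on the log2 scale. Each was well above background on 2 of the 3 TNFα arrays and not on TNFα 4, where the value lies near the background, so the size of these falls is approximate. *Cd109*, a surface protein that binds TGFβ, rose by 1.46 with TGFβ1 (q = 0.000111), and *Bmpr2* rose by 0.76 (q = 0.000229). *Acvrl1* fell with TGFβ1 (-1.29, SE 0.4, q = 0.0327). Its mean levels were dim, at -3.28 in controls and -4.57 with TGFβ1, though well above background on all arrays of both groups.

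Of the 13 signal transduction genes, all tested, 5 were higher and 1 lower with TGFβ1 and 1 was higher and 1 lower with TNFα, with medians of 0.41 and -0.01. Beside the 7.26% and 10.7% of all tested probes with TGFβ1 and the 4.15% and 6.01% with TNFα, the counts of 1 of 13 are near the share over all probes. Those higher with TGFβ1 were *Smad7*, *Skil*, *Pmepa1*, *Tgif1* and *Ldlrad4*, which all encode proteins known to restrain the SMAD signal. *Pmepa1* rose from 3.16 to 3.66 in controls to 5.69 to 5.80 with TGFβ1 (2.28, SE 0.212, q = 1.88e-05). *Smad7* rose by 2.01 (SE 0.478, q = 0.00932), or 1.68 with the slide in the model, and *Skil* by 1.51 (q = 0.00036). *Smad6*, an inhibitor that acts mainly on BMP receptors, fell by 1.93 with TGFβ1 (q = 8.24e-05) and by 1.59 with TNFα (q = 0.000503). *Smad2*, *Smad3*, *Smad4*, *Ski*, *Smurf1*, *Smurf2* and *Zfyve9* were not called with any treatment. With TGFβ1 the differences were 0.11 for *Ski* (q = 0.433), 0.49 for *Smurf2* (q = 0.0525) and 0.41 for *Smurf1*. The last had a q-value of 0.0118 but was under the fold-change limit. Of the 15 genes taken as targets of the pathway, which share *Smad7*, *Skil* and *Pmepa1* with the previous list, 9 were higher and 2 lower with TGFβ1 and 1 was higher and 3 lower with TNFα (medians 1.00 and -0.29), beside the same shares of all probes. *Ccn2*, a matricellular growth factor, had the largest difference, from 0.76 to 2.16 in controls to 4.55 to 4.85 with TGFβ1 (3.07, SE 0.392, q = 0.000191). The 2 targets lower with TGFβ1 were *Snai2* (-1.13, q = 3.61e-05) and *Id1* (-1.02, q = 0.0256). *Col1a1* (0.59, q = 0.0525), *Acta2* (0.37, q = 0.395) and *Tgfb1i1* (0.28, q = 0.142) were not called with TGFβ1. *Tgfbi* encodes a matrix protein and fell with TNFα from 2.63 to 2.94 in controls to 0.31 to 0.45 (-2.38, SE 0.237, q = 4.77e-05). With IL-6 it read 3.64 to 4.23, above every control, and the difference of 1.18 was not called (q = 0.171) but was with the slide as a block (q = 0.014). With TGFβ1 its difference of 0.46 (q = 0.187) was 0.60 and called with the slide as a block (q = 0.0129), which made 10 targets higher. Apart from *Lrrc32*, no gene of the 4 lists was called with IL-1β, and none was with IL-6, in the model without blocks. The slide as a block changed no other count of the 4 lists. With the slide and the run of label numbers as blocks, *Mmp9* and *Dcn* (higher) and *Fmod* and *Aspn* (lower) were also called with IL-1β, and *Tgfbi* and *Junb* (higher) and *Aspn* (lower) with IL-6. The limma model with both blocks also called *Mmp2* (-0.97, q = 8.47e-05) and *Acvrl1* (-0.89, q = 0.0174) lower with TNFα. With TGFβ1 it called *Bambi* higher (0.94, q = 0.0208). *Tgfbi* (0.58) was not called with TGFβ1 in that model, so 9 targets were higher.

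**Figure D5:**
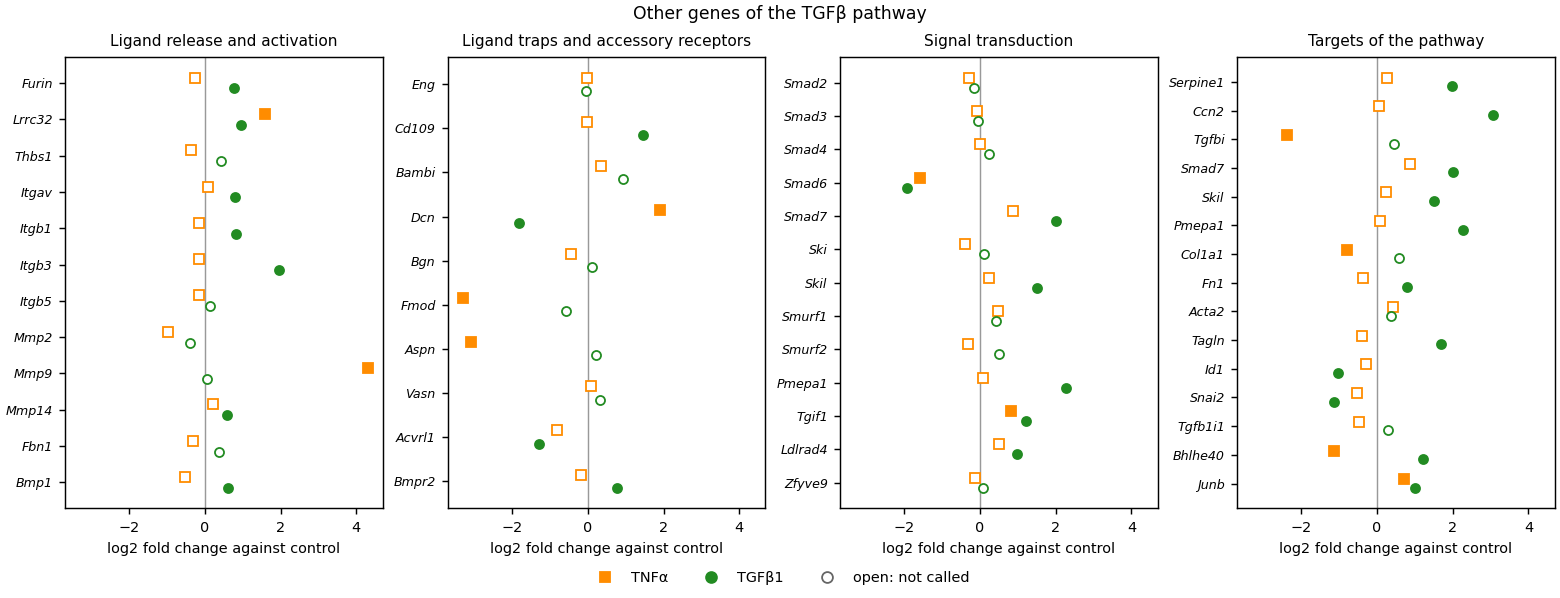
Log2 difference from control of the tested genes of the 4 pathway lists with TNFα (orange squares) and TGFβ1 (green circles). Filled points are called and open points are not. In the release and activation list 7 green points are filled, all to the right of 0, and in the traps list Dcn has filled points on both sides, 1.91 with TNFα and -1.81 with TGFβ1.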

How the data were processed

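The authors hybridized Cyanine 3 labelled RNA to 1-colour Agilent arrays and extracted 62976 spots an array with Agilent Feature Extraction 10.7.3.1. The deposited scanner files and value table hold, per the file headers, the processed signal as intensity after the software's background subtraction, with no normalization between arrays. Spots of control type and spots marked non-uniform or population outlier were left out. Processed signals were put on the log2 scale, spots of the same probe were averaged, and each array's 75th percentile (501 to 674 before log2) was subtracted. The 29334 probes that the software marked well above background on all arrays of 1 or more groups were tested with limma 3.58.1 in R 4.3.3, all 15 arrays in 1 model of the 5 groups, with moderated two-sided tests and q-values by Benjamini-Hochberg. The study names limma, the q-value of 0.05 and the fold-change of 1.5, with no block. It calls the control, TNFα and TGFβ1 arrays biological replicas of independent experiments. The labels do not say which arrays share an experiment, so no pairing was made. Alternatives were another background correction, scaling, filter, probe rule, call rule and set of arrays, the value table, the slide and the run of label numbers (1 to 5, 6 to 10, 11 to 15) as blocks, and leaving out each array. Probes were named through RefSeq identifiers with a table of GRCm38.p6 (33767 of 56605 matched). Gene positions from the array's design are left out since it used an earlier assembly. Those of the promoter windows are from GRCm38.p6. Intensities are not counts, and the number of arrays limits the precision. The script was tested on simulated data.

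The members and lists were chosen with earlier results of these data known. All 10 members are named; of each pathway list the named genes are up to 4 with the largest called change, and the other pathway genes named were chosen after their values were seen. For each ligand the 3 genes with the highest r were named.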

Additional observations from a re-analysis of the deposited data

How the results depend on the processing

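The 9 called differences from control kept their direction under all alternatives and in all fits that left out 1 array, and none lost its call when an array was left out. With other settings 2 were no longer called, *Ltbp2* with TNFα when only the arrays of both groups were fitted (1.13, q = 0.0775) and *Tgfbr2* with TGFβ1 at a fold-change of at least 2 (-0.92). The number of genes called moved by over 1.5 times in these cases: TNFα against control 5 with no minimum fold-change, IL-1β against control 1 and IL-1β against IL-6 1 with slide and run as blocks, and at a fold-change of at least 2, TNFα against TGFβ1 3, IL-1β against TNFα 1 and IL-6 against TNFα 1. When 1 array was left out, the counts were 3 to 4 (TNFα), 6 to 7 (TGFβ1) and 0 (IL-1β, IL-6) against control, 5 to 6 for TNFα, 4 to 6 for IL-1β and 5 to 6 for IL-6 against TGFβ1, 3 for IL-1β and 2 to 5 for IL-6 against TNFα, and 0 for IL-1β against IL-6. The low value of 2 came without IL-6 8. Between treatments, signs turned for some uncalled differences, also with all arrays fitted. These included *Ltbp1* between IL-6 and TGFβ1 (-0.15 to 0.07), *Tgfbr3* between IL-1β and IL-6 (-0.06 to 0.1) and *Ltbp2* between TNFα and TGFβ1 (-0.23 to 0.13). Among the differences from control, signs turned only for uncalled values near 0 when 1 array was left out. Their ranges were -0.05 to 0.23 for *Ltbp4* with TGFβ1, -0.08 to 0.16 for *Tgfb3*, -0.11 to 0.17 for *Ltbp4*, -0.17 to 0.11 for *Ltbp1* and -0.18 to 0 for *Tgfbr2* with IL-1β, and -0.11 to 0.13 for *Tgfbr1*, -0.17 to 0.11 for *Ltbp4* and -0.02 to 0.22 for *Tgfbr2* with IL-6. The count of all probes called ranged from 1589 to 4503 (TNFα, 2980 as reported), 2684 to 7325 (TGFβ1, 5279), 16 to 323 (IL-1β, 74) and 0 to 226 (IL-6, 20). Among pairs it ranged from 2098 to 4708 (TNFα against TGFβ1, 3476), 2570 to 6901 (IL-1β against TGFβ1, 4996), 2581 to 6519 (IL-6 against TGFβ1, 4801), 711 to 3074 (IL-1β against TNFα, 1428), 1435 to 4127 (IL-6 against TNFα, 2552) and 6 to 518 (IL-1β against IL-6, 122). The lowest counts came from the stricter fold-change or from fits of fewer arrays. The labels number the arrays 1 to 15 and share no number between groups, but each run of 5 numbers holds 1 array of every group, so the slide and the run together were also fitted as a replicate block. It called 4 genes with TNFα, 6 with TGFβ1, 1 with IL-1β (*Ltbp2*) and 0 with IL-6 against control. As a hint from the data and not the design, 14 of 15 arrays correlated best with an array of their own run among the other groups (deviations from group means over probes). However, only 12 of 30 pairs of the same run had r over 0.1, all of them on the same slide. So did 28 of 32 pairs of different runs on the same slide. On the same slide, the median r was 0.609 for the same run and 0.366 for different runs. Across slides it was -0.174 for the same run (-0.602 to 0.049) and -0.493 for different runs (-0.75 to -0.34). Pairs of the same run thus had the higher median both within and across slides.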

Other observations

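Among 12613 named genes compared, those whose levels followed each ligand most closely over the 15 arrays were found by Pearson's r with the ligand's brighter probe. For *Tgfb1* they were *Znrf2* (0.967), *Rmdn3* (0.965) and *Ercc1* (0.959). For *Tgfb2* they were *Creb3l1* (0.982), a transcription factor of the endoplasmic reticulum, *Kdelr3* (0.975), a receptor that returns proteins to it, and *Hoxb2* (0.967). For *Tgfb3* they were *Myo7a* (0.981), *Fam20a* (0.977) and *Notch4* (0.977). The 15 points share their 5 groups, their 2 slides and the scaling of each array, so these values describe a common pattern over the arrays and carry no test.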
